A study of Mus musculus with 18 samples.

Results

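Aminoacyl-tRNA synthetases are the enzymes that join each amino acid to its transfer RNA, the step that supplies every ribosome with charged tRNA. They were taken from the gene table as protein-coding genes whose symbols match the older mouse naming of the family (Aars, Cars and so on, with Eprs, and with Farsa and Farsb for the 2 subunits of the phenylalanine enzyme). The rule found 37 genes among 54532, of which 17 with names ending in 2 encode enzymes of the mitochondrion and 20 form the cytosolic class. All 37 passed the filter on low counts.

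Cytosolic ribosomes and mitochondrial ribosomes use separate sets of these enzymes, both encoded in the nucleus. Several cytosolic enzymes are held together in the multi-tRNA-synthetase complex, and the others act on their own. Gars and Kars each encode both the cytosolic and the mitochondrial form, so they have no partner ending in 2, and glutaminyl-tRNA in the mitochondrion is made by an amidotransferase instead of a synthetase. In mammals ATF4, the transcription factor of the integrated stress response, is known to induce many cytosolic synthetase genes together with amino acid transporters. Mitochondrial protein synthesis makes core subunits of the respiratory chain and weighs heavily in heart muscle, which is rich in mitochondria.

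The libraries were made from polyadenylated RNA of the apex of mouse hearts, in a study of raised lamin A or lamin C in a dilated cardiomyopathy model produced by Lmna knockdown and delivered with rAAV9, a recombinant adeno-associated virus of serotype 9. In batch LC 3 libraries were controls, 3 were titled L881 and labelled Lmna shRNA, and 3 were titled L881+LC and labelled Lmna shRNA+Lamin C. In batch LA 3 were controls, 3 were again labelled Lmna shRNA, and 3 were titled L881+LA and labelled Lmna shRNA+Lamin A. All 18 carried the genotype label WT. The treatment of the controls, the promoters, and the strain, sex, age and time after delivery do not appear in the sources used here, nor is it said that each library is a separate animal, so p-values measure the spread between these libraries. Each lamin was given in 1 batch, so lamin and batch cannot be told apart except through the controls and the hearts labelled Lmna shRNA of the same batch. In the names of the deposited columns the third controls of the 2 batches carry neighbouring numbers, apart from those of the other controls. The labels do not say what the numbers stand for, and the batch was taken from the titles. Without both of these controls the shRNA counts given below came to 8 cytosolic members higher, 9 lower and 16 mitochondrial lower in batch LC, and 8, 7 and 16 in batch LA.

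Library totals lay between 31418657 and 41259968 counts, and single members held between 113 and 9790 counts. Lmna did not bear out the shRNA label in these counts: it stood at 122, 129 and 120 CPM (counts relative to the TMM-scaled library total) in the controls of batch LC and at 137, 134 and 115 CPM in the hearts labelled Lmna shRNA, a log2 fold change of 0.06 ± 0.08 (edgeR quasi-likelihood test, adjusted p = 0.578). In batch LA the change was 0.11 ± 0.08 (edgeR, adjusted p = 0.258). With lamin C Lmna reached 1317, 1064 and 1375 CPM, and with lamin A 556, 537 and 502 CPM. The counts separate neither lamin A from lamin C nor a delivered transcript from the mouse gene, so every group below is named by its label. The deposited FPKM (fragments per kilobase of gene) were scaled between libraries nearly as TMM does, and not on library totals. Summed FPKM of 12 cardiomyocyte markers lay between 31810 and 34070 in the controls and between 13260 and 15710 with the shRNA label. With lamin C the sum lay between 28160 and 30230 and with lamin A between 21920 and 22990, with no marker at 0. Over the same groups 11 fibroblast markers summed to between 260.6 and 330.9, between 1346 and 1868, between 438.7 and 612.9, and between 1201 and 1574 FPKM. Macrophage markers (12 genes) ran between 241.2 and 311.2 in controls, 957.1 and 1145 with the shRNA label, 454.8 and 535.8 with lamin C, and 895.9 and 950.3 with lamin A. In bulk tissue fewer cells of a type and less RNA per cell cannot be told apart, and the part of this shift in the synthetase results was not tested. Mitochondrially encoded genes took between 25.2% and 27% of the counts in controls and between 13% and 15.6% in hearts labelled Lmna shRNA. The scale matters below: without TMM scaling, on library totals, the median gene of batch LC moved from 0.05 to 0.47 on the log2 scale, and that of batch LA from 0.05 to 0.48.

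In control hearts the cytosolic class stood above the mitochondrial class in length-scaled level, with a median over members of 12.6 FPKM against 5.73 FPKM. Nars, the asparagine enzyme, was highest at 33.8 FPKM (range 32.4 to 35.6 over 6 controls), clear of Gars at 22.1 (21.0 to 22.7) and Kars at 21.6 (20.5 to 22.5). Gars and Kars overlapped each other. Cars, the cysteine enzyme, was the lowest of the cytosolic class at 2.72 FPKM (2.50 to 3.13). Iars2, for mitochondrial isoleucine, led its class at 15.1 FPKM (14.4 to 15.6). It was followed by Lars2 for leucine at 10.9 FPKM (8.13 to 16.5), whose range reached above that of Iars2, and Fars2 for phenylalanine at 8.41 (7.87 to 8.84). At the bottom Pars2, at 1.49 FPKM (1.36 to 1.68), and Wars2, at 1.39 (1.32 to 1.51), overlapped. These levels depend on the annotated gene length, which is 18102 bases for Eprs and 2632 for Nars. Eprs was at 6.81 FPKM, though its 126.5, 133.8 and 129.6 CPM in LC controls were above those of Nars.

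Mitochondrial synthetase mRNAs fell nearly as a block in hearts labelled Lmna shRNA. In each batch 16 of 17 were lower at an adjusted p under 0.05 (edgeR, adjusted over 17876 genes), none was higher, and Lars2 alone missed the threshold. Of all genes tested, 29.6% were called lower in batch LC and 29% in batch LA. The median change of the class was −0.76 in batch LC and −0.70 in batch LA on the log2 scale, against 0.05 for all genes in each. On library totals 13 of 17 were lower in batch LC and 12 in batch LA, with none higher, and Rars2 turned to 0.02 in both. Of all genes called on that scale 81.2% in batch LC and 82.4% in batch LA were higher. The same 16 genes had control and shRNA-labelled libraries that did not overlap in either batch, where 64.9% of all genes in batch LC and 67.8% in batch LA did not.

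**Figure D1:**
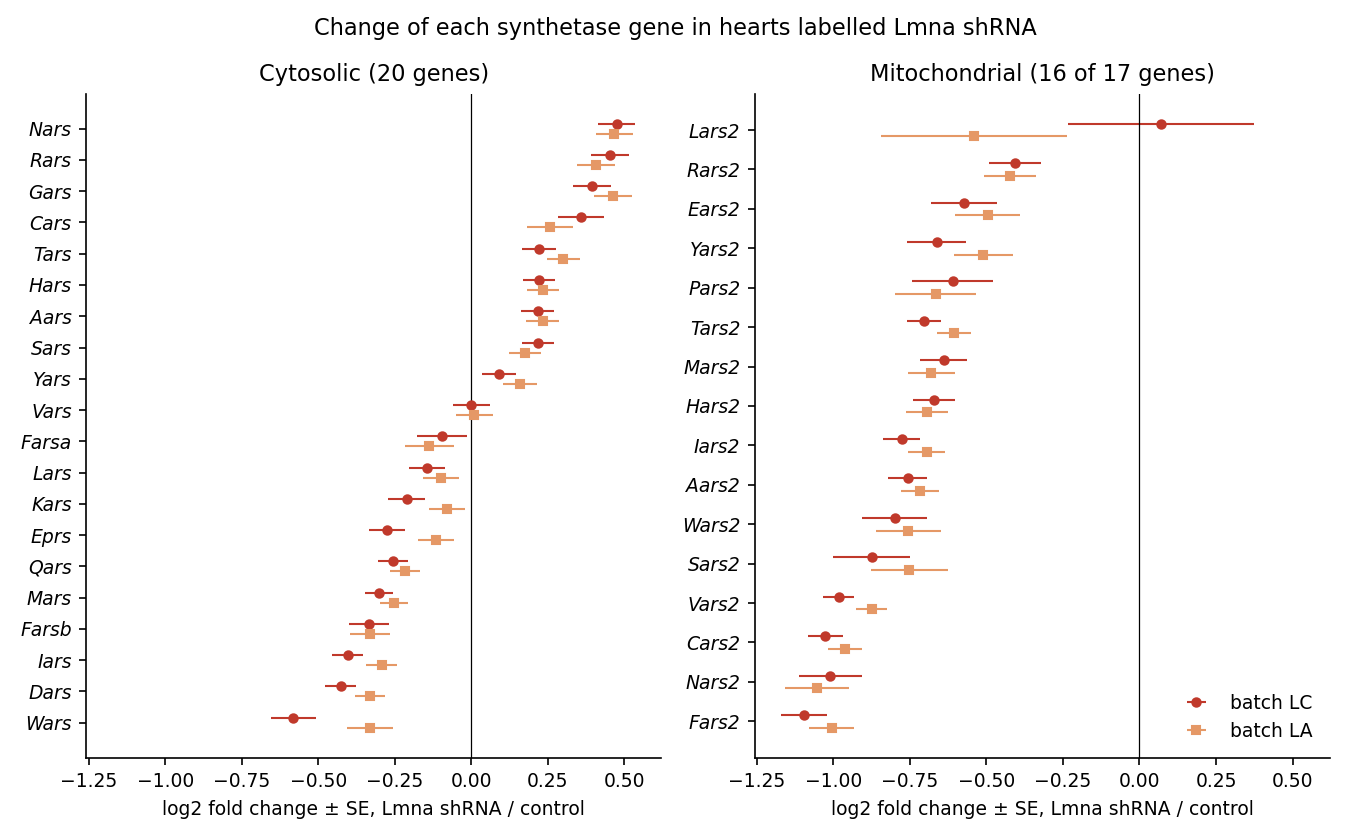
Log2 fold change (x axis, ± SE from edgeR) of 36 of the 37 synthetase genes in hearts labelled Lmna shRNA against the controls of batch LC (circles) and batch LA (squares), 3 libraries a group, cytosolic genes left and mitochondrial genes right. The mitochondrial genes plotted other than Lars2 all lie below −0.40 and cytosolic genes lie on both sides of 0 under TMM scaling, while on library totals no cytosolic gene was called lower and Rars2 lay at 0.02.

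Fars2, which charges the mitochondrial tRNA for phenylalanine, showed the largest fall averaged over the batches. It measured 51.9, 47.7 and 50 CPM in the controls of batch LC and 23.4, 26.0 and 20.5 CPM in the hearts labelled Lmna shRNA. In batch LA the values were 46.3, 51.2 and 49.2 CPM in controls against 25.4, 24.9 and 22.7 CPM with the shRNA label. Every control was above every shRNA-labelled heart, and the log2 changes were −1.10 ± 0.07 (edgeR, adjusted p = 1.74e-10) and −1.01 ± 0.07 (adjusted p = 6.35e-10). Nars2, the asparagine enzyme of the mitochondrion, held 17.3, 14.6 and 17.1 CPM in LC controls and 8.65, 8.67 and 7.005 CPM in the shRNA-labelled hearts beside them. Its LA controls held 15.0, 15.9 and 15.8 CPM and the shRNA-labelled hearts 6.94, 8.26 and 7.26 CPM. Both batches thus showed a drop with no overlap, of −1.01 ± 0.10 and −1.05 ± 0.10.

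Cars2 encodes the mitochondrial cysteine enzyme. Its LC controls were at 36.3, 35.0 and 34.2 CPM, against 17.5, 17.7 and 16.6 CPM with the shRNA label, and its LA controls at 36.7, 38.1 and 35.1 CPM against 18.2, 18.4 and 19.8 CPM. The log2 changes were −1.03 ± 0.06 and −0.96 ± 0.06. Vars2, for valine, had the tightest replicates of the class: 33.0, 32.7 and 30.7 CPM in LC controls and 16.3, 16.1 and 16.4 CPM in hearts labelled Lmna shRNA. In batch LA it went from 32.02, 31.7 and 31.6 CPM to 17.6, 17.9 and 16.5 CPM, so that the libraries of each label lay close together and far from the other label. Vars2 changed by −0.98 ± 0.05 and −0.87 ± 0.05.

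Iars2, the most abundant of the class, dropped from 142, 140 and 139 CPM to 79.6, 87.2 and 78.5 CPM in batch LC. It dropped from 131, 130 and 137 CPM to 86.7, 76.6 and 83.1 CPM in batch LA. The changes were −0.78 ± 0.06 and −0.70 ± 0.06, and 22.9% of its exon bases also belong to Rab3gap2 on the other strand. The other called members described here ranged from Sars2 (serine, −0.88 ± 0.13 and −0.75 ± 0.13) to Rars2 (arginine, −0.41 ± 0.08 and −0.42 ± 0.08). Between these lay Aars2, Ears2, Hars2, Mars2, Pars2, Tars2, Wars2 and Yars2.

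Lars2, the mitochondrial leucine enzyme, was the exception and the least repeatable of the 37. Its libraries read 105, 105 and 135 CPM in LC controls and 203, 81.2 and 77.1 CPM in the hearts labelled Lmna shRNA, so the first of these hearts alone was above all controls. In batch LA it read 118, 92.2 and 187 CPM in controls and 96.7, 85.3 and 90.4 CPM in shRNA-labelled hearts. With lamin C it stood at 77.8, 112 and 135 CPM, and with lamin A at 89.1, 83.8 and 130 CPM. The changes were 0.07 ± 0.30 (edgeR, adjusted p = 0.858) and −0.54 ± 0.30 (adjusted p = 0.131). Its coefficient of variation within groups had a median of 25.8% and a maximum of 59.4%, where the next member, Nars2, had a median of 9.33%.

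The level of Lars2 rose and fell across libraries with Gm42418, a transcript annotated inside a ribosomal RNA repeat and picked for this comparison after the values had been seen. Over 18 libraries Pearson's r was 0.949 (permutation p = 1e-05, the smallest the 100000 resamples can give) and Spearman's rho 0.835 (permutation p = 4e-05), the only relation across libraries for which a p was computed. Without the 2 libraries farthest from the median of Gm42418, r was 0.877 (permutation p = 2e-05). Within batch LC r was 0.948 and rho 0.917 (n = 9, exact permutation p = 5.2e-05 and 0.0013), and within batch LA r was 0.957 and rho 0.733 (n = 9, exact permutation p = 0.00062 and 0.031). All these permutations exchanged libraries across groups, so the p-values take no account of the labels. For the other 36 synthetases r with Gm42418 ran from −0.316 to 0.285 over the 18 libraries. The sources used here do not say how reads from ribosomal RNA were treated, and their part in the Lars2 counts was not tested.

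**Figure D2:**
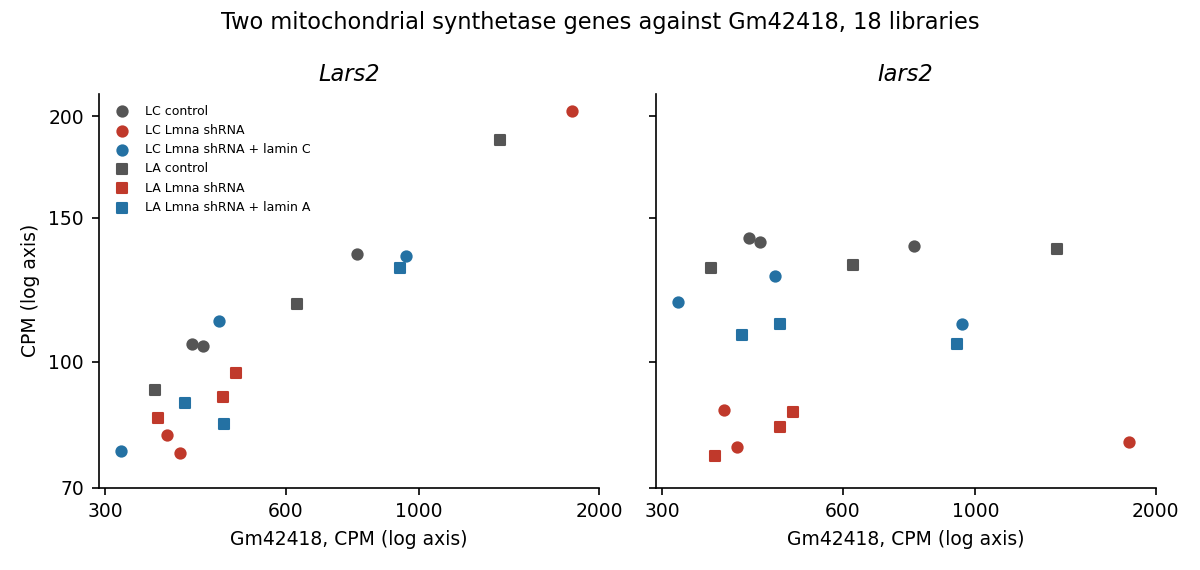
CPM of Lars2 (left) and, for contrast, Iars2 (right) against CPM of Gm42418 in each of the 18 libraries, both axes logarithmic; circles are batch LC, squares batch LA. Lars2 follows Gm42418 from 319 to 1806 CPM with r = 0.949, whereas Iars2 is ordered by label, with the 6 shRNA-labelled hearts lowest.

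Cytosolic synthetases, like genes at large, were called in both directions under TMM scaling in hearts labelled Lmna shRNA. On library totals 16 and 17 of 20 were higher and none lower. On that scale 12844 and 12907 of all 17876 genes were called, and 81.2% and 82.4% of these were higher. Under TMM scaling 8 of 20 were higher and 9 lower in batch LC, and 9 higher and 6 lower in batch LA. Among all genes 33.3% were higher in batch LC and 32.4% in batch LA under TMM scaling, and 29.6% and 29% were lower. In either direction 62.9% and 61.4% were called. The class median was −0.05 in batch LC and −0.03 in batch LA, against 0.05 for all genes. Called higher in both batches were Aars, Cars, Gars, Hars, Nars, Rars, Sars and Tars. Called lower in both under TMM scaling were Dars, Farsb, Iars, Mars, Qars and Wars, and none of these 6 was lower at the threshold on library totals. Vars and Farsa met the threshold in neither batch.

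Nars rose the most. It went from 90.3, 90.5 and 95.7 CPM in LC controls to 126, 117.4 and 141 CPM in the hearts labelled Lmna shRNA. In batch LA it went from 90.7, 90.6 and 86.8 CPM to 125, 123 and 122 CPM, with no overlap in either batch. These are log2 changes of 0.48 ± 0.06 (edgeR, adjusted p = 1.29e-06) and 0.47 ± 0.06 (adjusted p = 1.71e-06). Rars, the arginine enzyme, was at 38.4, 37.8 and 40.2 CPM in LC controls and 54.4, 50.7 and 54.4 CPM with the shRNA label. Its LA values were 39.8, 42.0 and 37.8 CPM and 54.7, 53.9 and 50.1 CPM. Rars was the single member of the multi-tRNA-synthetase complex that rose under TMM scaling (6 did in batch LC and 7 in batch LA on library totals), by 0.45 ± 0.06 and 0.41 ± 0.06. Gars, the glycine enzyme of both compartments, measured 72.2, 70.5 and 72.3 CPM in LC controls and 91.3, 88.7 and 103 CPM in shRNA-labelled hearts. In batch LA the values were 66.9, 70.5 and 70.3 CPM and 101, 93.6 and 91.7 CPM, so this dual-use gene moved up by 0.40 ± 0.06 and 0.46 ± 0.06 while the dedicated mitochondrial enzymes fell.

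Wars, the tryptophan enzyme, is also an interferon-induced gene. It read lower with the shRNA label under TMM scaling: 58.0, 58.1 and 56.1 CPM in LC controls against 38.4, 35.0 and 41.7 CPM, and 51.5, 50.6 and 51.1 CPM in LA controls against 38.4, 42.3 and 41.1 CPM. The changes were −0.58 ± 0.07 (edgeR, adjusted p = 1.24e-06) and −0.33 ± 0.07 (adjusted p = 0.000732), the latter turning to 0.11 on library totals. Of 18 interferon response genes 16 were higher in batch LC and 17 in batch LA, and none was lower. Among all genes 33.3% and 32.4% were higher. Dars, the aspartate enzyme of the complex, measured 79.4, 76.8 and 78.8 CPM in LC controls and 61.1, 56.9 and 56.8 CPM with the shRNA label. In batch LA it measured 72.1, 77.1 and 76.9 CPM and 58.4, 61.9 and 59.7 CPM. Its libraries did not overlap, with changes of −0.43 ± 0.05 and −0.33 ± 0.05, the second of which became 0.11 on library totals. Kars, the dual-use lysine enzyme, went from 102, 101 and 100.1 CPM to 79.6, 90.2 and 92.2 CPM in batch LC and from 93.6, 95.4 and 99.9 CPM to 92.3, 92.6 and 88.7 CPM in batch LA. It was called lower in batch LC alone (−0.21 ± 0.06, against −0.08 ± 0.06 in batch LA), and turned to 0.22 and 0.36 on library totals.

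**Figure D3:**
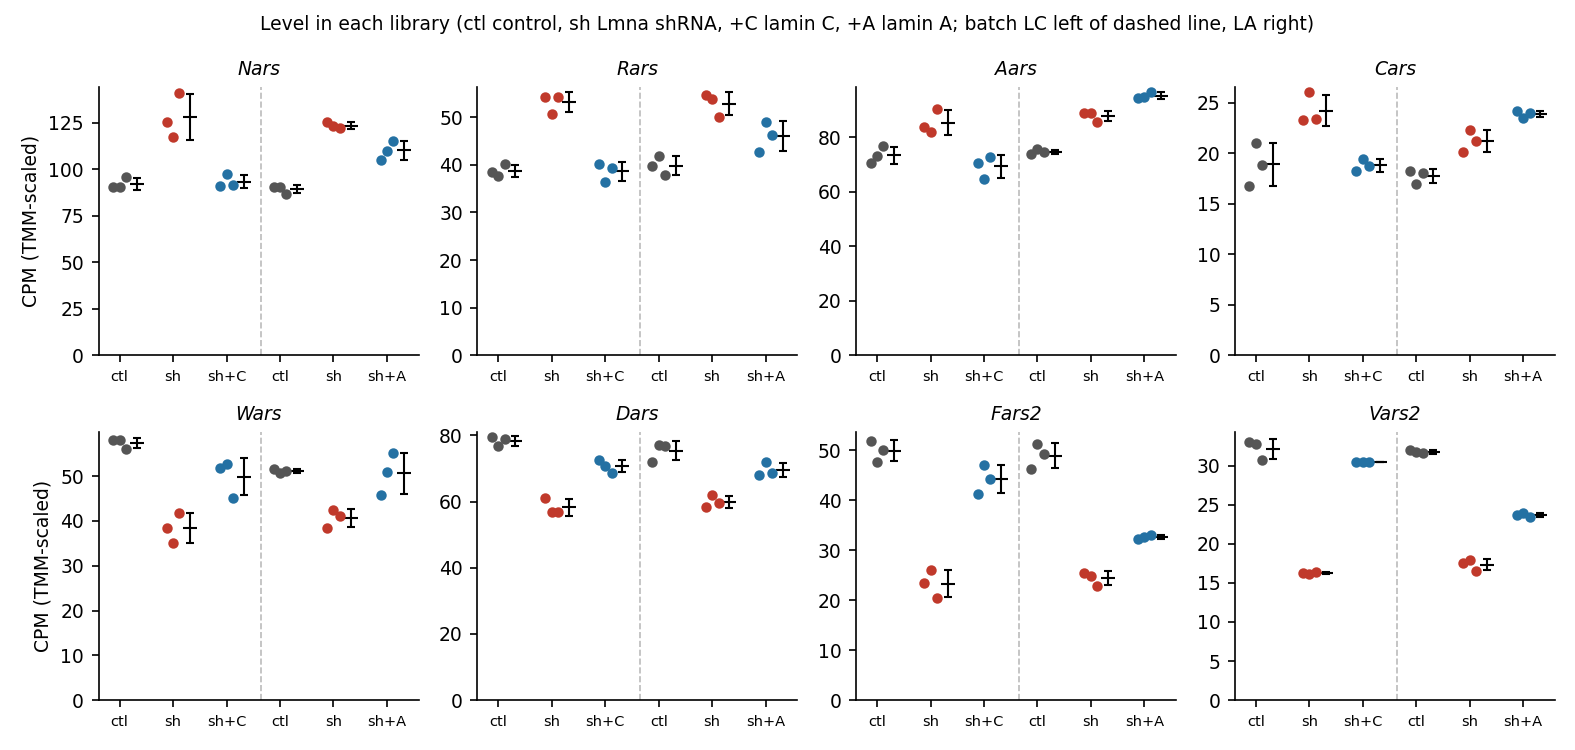
CPM after TMM scaling (y axis from 0) of 6 cytosolic and 2 mitochondrial synthetases in each of the 18 libraries, with mean and SD of 3 libraries beside each group; batch LC is left of the dashed line and batch LA right. Nars, Rars, Aars and Cars are higher with the shRNA label than in controls, and Wars, Dars, Fars2 and Vars2 are lower, where on library totals Dars and Wars of batch LA turn to 0.11.

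The cytosolic class was next read by membership of the multi-tRNA-synthetase complex. Of its 8 synthetases (Dars, Eprs, Iars, Kars, Lars, Mars, Qars and Rars) 1 was higher and 7 lower in batch LC under TMM scaling. In batch LA 1 was higher and 4 lower. On library totals 6 and 7 were higher and 0 lower, where 81.2% and 82.4% of all genes called were higher. Under TMM scaling the 12 synthetase genes outside the complex gave 7 higher and 2 lower, and 8 higher and 2 lower. Median changes were −0.26 and −0.16 for the complex, and 0.22 and 0.20 for the rest. On library totals the medians were 0.16 and 0.27 for the complex, against 0.64 and 0.64 for the rest. Its scaffold Aimp1 was lower under TMM scaling in batch LC (−0.30 ± 0.06, edgeR, adjusted p = 0.000361) and batch LA (−0.24 ± 0.06, adjusted p = 0.00244), but turned to 0.13 and 0.20 on library totals. Aimp2 was at 0.01 ± 0.11 and 0.04 ± 0.11, or 0.44 and 0.48 on library totals. Eef1e1, the third scaffold subunit, was higher (0.33 ± 0.10 in both batches). By catalytic fold, class I cytosolic enzymes gave 2 higher and 6 lower of 10 in batch LC and class II gave 6 higher and 3 lower of 10. In batch LA class I gave 3 higher and 4 lower, and class II 6 higher and 2 lower. Of all genes 33.3% were higher and 29.6% lower in batch LC, and 32.4% and 29% in batch LA. These counts by fold are under TMM scaling, and on library totals 0 cytosolic members were lower in either batch. The split by fold is not separate from that by complex: Iars, Lars, Mars, Qars and Rars are class I, and Dars and Kars class II. Eprs, which serves both glutamate and proline, was counted in class I by its glutamate activity alone. Its proline activity belongs to class II.

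Matched by amino acid, the cytosolic enzyme changed upward of its mitochondrial partner in 17 of 18 pairs in batch LC and in 18 of 18 in batch LA. Eprs enters 2 of these pairs, as the partner of Ears2 and Pars2, and Fars2 is set against Farsa and Farsb. The difference had a median of 0.81 in batch LC and 0.75 in batch LA on the log2 scale, and was widest for asparagine (1.49 and 1.52). The leucine pair, with Lars2, was the exception at −0.21. A ratio of classes within a library does not depend on the scaling. Cytosolic minus mitochondrial mean log2 CPM was 1.04, 1.09 and 1.05 in LC controls and 1.70, 1.73 and 1.91 in the hearts labelled Lmna shRNA. It was 1.06, 1.06 and 0.97 in LA controls and 1.78, 1.79 and 1.76 in shRNA-labelled hearts, so both sets of controls were below both sets of shRNA-labelled hearts. In summed FPKM the cytosolic class was 2.73 ± 0.03 times the mitochondrial class in LC controls (SD, n = 3) and 4.46 ± 0.62 times in hearts labelled Lmna shRNA. The LA values were 2.66 ± 0.14 and 4.54 ± 0.03 times. The cytosolic sum itself was 262.6, 262.5 and 264.7 FPKM in LC controls and 266.2, 261.9 and 277.9 FPKM with the shRNA label. The mitochondrial sum was 97.37, 95.05 and 97.43 FPKM, and 68.7, 59.8 and 54.3 FPKM. On the FPKM scale, then, the cytosolic sums of batch LC overlapped and the mitochondrial sums did not. In batch LA the cytosolic sum was 251.3, 255.3 and 257.9 FPKM in controls and 271.6, 270.8 and 263.3 FPKM with the shRNA label. The mitochondrial sum there was 93.1, 91.97 and 103 FPKM, and 59.6, 59.3 and 58.4 FPKM, so in batch LA neither sum overlapped on this scale. Unlike the ratio, the sum of a single class depends on the scaling. On library totals the cytosolic median change was 0.38 in batch LC and 0.40 in batch LA, with 16 and 17 members higher and 0 lower. The mitochondrial medians were −0.33 and −0.26 there.

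**Figure D4:**
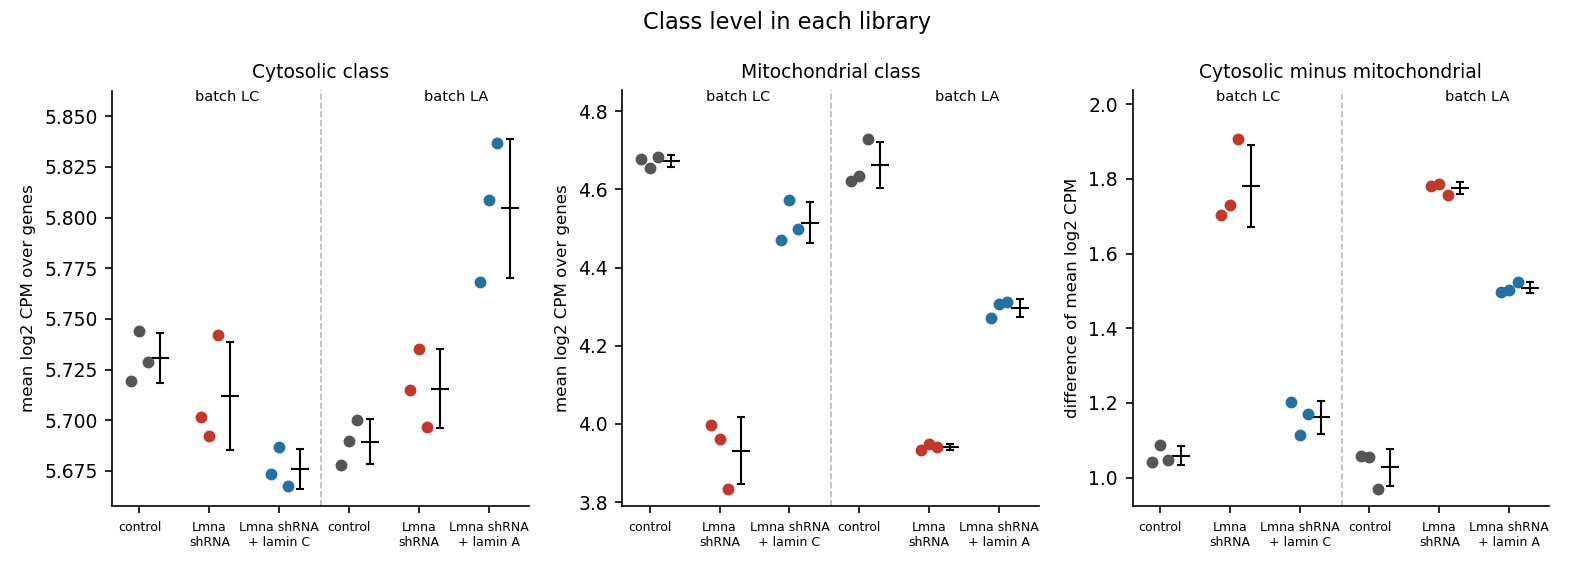
Mean log2 CPM over the 20 cytosolic genes (left), over the 17 mitochondrial genes (middle) and the difference of these means (right) in each library, with mean and SD of 3 libraries; batch LC is left of the dashed line and batch LA right. The difference is 1.06 ± 0.03 and 1.03 ± 0.05 in controls, 1.78 ± 0.11 and 1.78 ± 0.02 in hearts labelled Lmna shRNA, 1.16 ± 0.04 with lamin C and 1.51 ± 0.01 with lamin A, and the y axes do not start at 0.

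The response to the shRNA label was compared between the batches by a test of the difference (edgeR). It called 0 of 37 members and 0.00559% of all genes, a single gene. At an unadjusted p under 0.05 stood 1 member, Wars, and DESeq2 called 0. The median standard error of a member in this test was 0.09, and the differences lay between −0.61, for Lars2, and 0.25, for Wars.

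Other genes of the charging pathway were read from fixed lists. Of all genes called on library totals 81.2% were higher in batch LC and 82.4% in batch LA. Under TMM scaling 33.3% of all genes were higher and 29.6% lower in batch LC, and 32.4% and 29% in batch LA. Of 14 factors of mitochondrial translation all 14 were lower in batch LC and 13 in batch LA, with medians of −0.98 and −0.85, and on library totals 12 were lower and 1 higher in each. They include Tufm, the elongation factor that brings charged tRNA to the mitochondrial ribosome (−1.28 ± 0.10 and −1.14 ± 0.10), the elongation factor Gfm1 (−0.99 ± 0.06 and −0.90 ± 0.06), Lrpprc, which stabilises mitochondrial mRNA (−1.45 ± 0.07 and −1.36 ± 0.07), and Taco1, a translational activator (−1.40 ± 0.10 and −1.35 ± 0.10). The 14 scaffold and other charging proteins gave 1 higher and 6 lower in batch LC and 1 higher and 7 lower in batch LA, or 5 and 4, and 6 and 5, on library totals. Gatb, Gatc and Qrsl1 form the amidotransferase that makes mitochondrial glutaminyl-tRNA. Each was lower, Gatb by −1.10 ± 0.06 and −1.11 ± 0.06, Gatc by −0.56 ± 0.08 and −0.67 ± 0.08, and Qrsl1 by −1.23 ± 0.09 and −1.13 ± 0.09. Tarsl2, a further cytosolic threonine enzyme whose name falls outside the rule, was lower too (−1.17 ± 0.07 and −1.03 ± 0.07), where Tars was higher (0.22 ± 0.05 and 0.30 ± 0.05). Mitochondrial tRNA maturation genes gave 13 lower of 17 in batch LC, and 10 lower with 2 higher in batch LA, but 5 lower with 5 higher and 5 lower with 9 higher on library totals. Lower under TMM scaling were the tRNA methyltransferases Trmt5 (−1.26 ± 0.08 and −1.35 ± 0.08) and Trmt2b (−0.92 ± 0.06 and −0.93 ± 0.06).

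Integrated stress response genes moved mostly upward in the same hearts. Of 26 tested 19 were higher and 4 lower in batch LC, with a median of 0.72. In batch LA 16 were higher and 4 lower, with a median of 0.73. Among all genes 33.3% and 32.4% were higher in batches LC and LA, and 29.6% and 29% lower. On library totals 81.2% of the genes called in batch LC were higher. Atf4 itself measured 78.4, 68.2 and 58.0 CPM in LC controls and 105, 89.7 and 108 CPM with the shRNA label, a change of 0.56 ± 0.09 (edgeR, adjusted p = 2.72e-05), and 0.49 ± 0.09 in batch LA (adjusted p = 0.000123). Ddit3, a stress-induced transcription factor that shares 68 exon bases with Mars on the other strand, changed by 0.93 ± 0.15 and 1.12 ± 0.16. Asns, asparagine synthetase, which makes the substrate of Nars, changed by 1.54 ± 0.22 and 1.01 ± 0.21. The serine synthesis enzyme Psat1 changed by 2.44 ± 0.13 and 2.51 ± 0.13. Lower members included Shmt2, the mitochondrial serine hydroxymethyltransferase (−0.56 ± 0.05 in batch LC). Amino acid transporters gave 12 higher and 1 lower of 15 in each batch, with Slc7a5 at 1.72 ± 0.13 and 1.58 ± 0.12 and Slc3a2, its heavy chain, at 0.99 ± 0.07 and 0.74 ± 0.07. Among eIF2α kinases and their sensors 5 were higher and 4 lower of 10 in batch LC, or 7 and 2 on library totals. Dele1, which relays mitochondrial stress to the kinase Eif2ak1, was lower (−1.67 ± 0.11 and −1.62 ± 0.11), and the kinase Eif2ak2, also an interferon-induced gene, was higher (1.11 ± 0.13 and 1.16 ± 0.13). The 11 cytosolic elongation factors gave 2 higher and 2 lower in batch LC, with a median change of 0.03, and 8 higher and 1 lower on library totals.

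Promoter windows from 250 bases before to 50 bases after the start were matched in RefSeq (GRCm38.p6) for 26 of the 37 genes, 12 cytosolic and 14 mitochondrial. They were searched on both strands for TGATGNAA, the form of the element bound by ATF4 with CEBP partners. It stood in 5 of 12 cytosolic promoters (41.7%: Aars, Gars, Iars, Tars and Yars), in 0 of 15 mitochondrial promoters and in 3.97% of the 32851 promoters of the table. The sequences below are shown because they hold each match, in capitals, read 5′ to 3′ on the strand of the gene.
Aars, chr8:111033690-111033777, plus strand, the element beginning 112 bases before the start: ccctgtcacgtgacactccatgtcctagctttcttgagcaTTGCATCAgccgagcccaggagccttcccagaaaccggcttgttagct
Aars, chr8:111033840-111033869, plus strand, 9 bases after the start: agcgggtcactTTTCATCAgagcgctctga
Gars, chr6:55037931-55038000, plus strand, 30 bases before the start: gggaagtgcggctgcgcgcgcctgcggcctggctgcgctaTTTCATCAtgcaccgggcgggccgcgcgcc
Iars, chr13:49682126-49682155, plus strand, 7 bases after the start: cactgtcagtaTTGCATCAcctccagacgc
Tars, chr15:11399659-11399713, minus strand, 15 bases before the start: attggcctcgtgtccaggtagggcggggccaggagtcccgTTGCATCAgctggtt
Yars, chr4:129189895-129189924, plus strand, 3 bases after the start: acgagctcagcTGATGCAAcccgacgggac
Aars, Gars and Tars were higher in both batches, Yars in batch LA (0.16 ± 0.06, edgeR, adjusted p = 0.0168, after 0.09 ± 0.06 in batch LC), and Iars was lower under TMM scaling (−0.40 ± 0.05 and −0.29 ± 0.05, turning to 0.02 and 0.15 on library totals). Of the 7 matched cytosolic genes without these letters Sars was higher in both batches, and Dars, Farsb and Qars were lower in both on the TMM scale. Cars, Hars, Nars and Rars, also higher in both batches, had no matched window and were not searched. The palindromic element of NRF1, a regulator of nuclear genes for mitochondrial proteins, was chosen after the first search and stood in 3 of 12 cytosolic promoters (Farsb, Kars and Tars), in the promoters of 2 of 14 mitochondrial genes (Iars2 and Mars2) and in 4.6% of all. A match says only that the letters are present.

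With lamin C most mitochondrial synthetases were higher than with the shRNA label alone. Against control 4 of 37 members were called, where 15% of all genes were. Against hearts labelled Lmna shRNA, 15 of 17 mitochondrial synthetases were higher with lamin C and none lower, where 25.7% of all genes were higher and 28.4% lower (54.1% either way). The libraries of the groups did not overlap for 32 of 37 members, and for 60.4% of all genes. The class median was 0.59, against −0.04 for all genes, and 11 of 17 were higher on library totals. Cytosolic members gave 6 higher and 9 lower under TMM scaling. On library totals 0 were higher and 13 lower, where 20.2% of the 11550 genes called were higher. These comparisons and those against control share the libraries labelled Lmna shRNA, so opposite signs in them are partly built in. Compared with control directly, 0 members were higher with lamin C (0 at an unadjusted edgeR p under 0.05, and 0 by DESeq2). The 4 lower were Eprs (−0.21 ± 0.06), Iars (−0.16 ± 0.05), Cars2 (−0.29 ± 0.06) and Iars2 (−0.24 ± 0.06). At an unadjusted edgeR p under 0.05, 11 members were lower, and 32 of 37 changes were negative. Of all genes 8.87% were higher and 6.18% lower in that comparison (15% either way), 12 of 37 members and 30.1% of all genes had libraries that did not overlap, and the class medians were −0.04 and −0.14. All 17 mitochondrial genes, called or not, lay between −0.29 and −0.08. On library totals 2 members were higher than control, Sars (0.17) and Vars (0.20), and 1 was lower, Cars2. Of the 3172 genes called on that scale 90.8% were higher. Without any 1 of the 6 libraries compared, 0 or 1 of the calls for Eprs and Iars remained, and without lamin C replicate 3 there was 1 mitochondrial call.

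With lamin A most mitochondrial synthetases were higher than with the shRNA label alone and lower than control, and 10 of 20 cytosolic genes were higher than control. Against hearts labelled Lmna shRNA 15 of 17 mitochondrial genes were higher, with a median of 0.40, where 16.1% of all genes were higher and 29.8% were called either way, and 7 of 17 were higher on library totals. Cytosolic members gave 6 higher and 2 lower, where 13.7% of all genes were lower. On library totals 0 were higher and 8 lower, where 17.1% of the 7485 genes called were higher. Groups did not overlap for 28 of 37 members and 45.2% of all genes. Against control 12 of 17 mitochondrial genes were lower with lamin A (median −0.37, with 22.1% of all genes lower), or 5 on library totals. Cytosolic members gave 10 higher and 2 lower (24.1% of all genes were higher and 46.2% called either way). On library totals 17 were higher and 0 lower, where 81.3% of the 9436 genes called were higher. Groups did not overlap for 27 of 37 members and 56% of all genes. The 10 were Aars, Cars, Gars, Hars, Nars, Rars, Sars, Tars, Vars and Yars, of which 9 act outside the complex. Atf4 was higher than control with lamin A (0.42 ± 0.09, edgeR, adjusted p = 0.000891) and at 0.20 ± 0.09 with lamin C (adjusted p = 0.167), and Asns was at 1.32 ± 0.21 (adjusted p = 4.27e-05) and 0.32 ± 0.24 (adjusted p = 0.407). Of the 26 integrated stress response genes tested, 15 were higher and 4 lower than control with lamin A, and 10 higher and 3 lower with lamin C. On library totals these were 20 and 3, and 15 and 1. Under TMM scaling 24.1% of all genes were higher than control with lamin A and 8.87% with lamin C. The counts of 2 cytosolic members lower with lamin A were the least steady: leaving out 1 library gave 0 to 2 against the shRNA label and 0 to 3 against control. For mitochondrial members it gave 12 to 14 higher than with the shRNA label, always under the 15 of the full set. Against control it gave 11 to 14 lower.

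**Figure D5:**
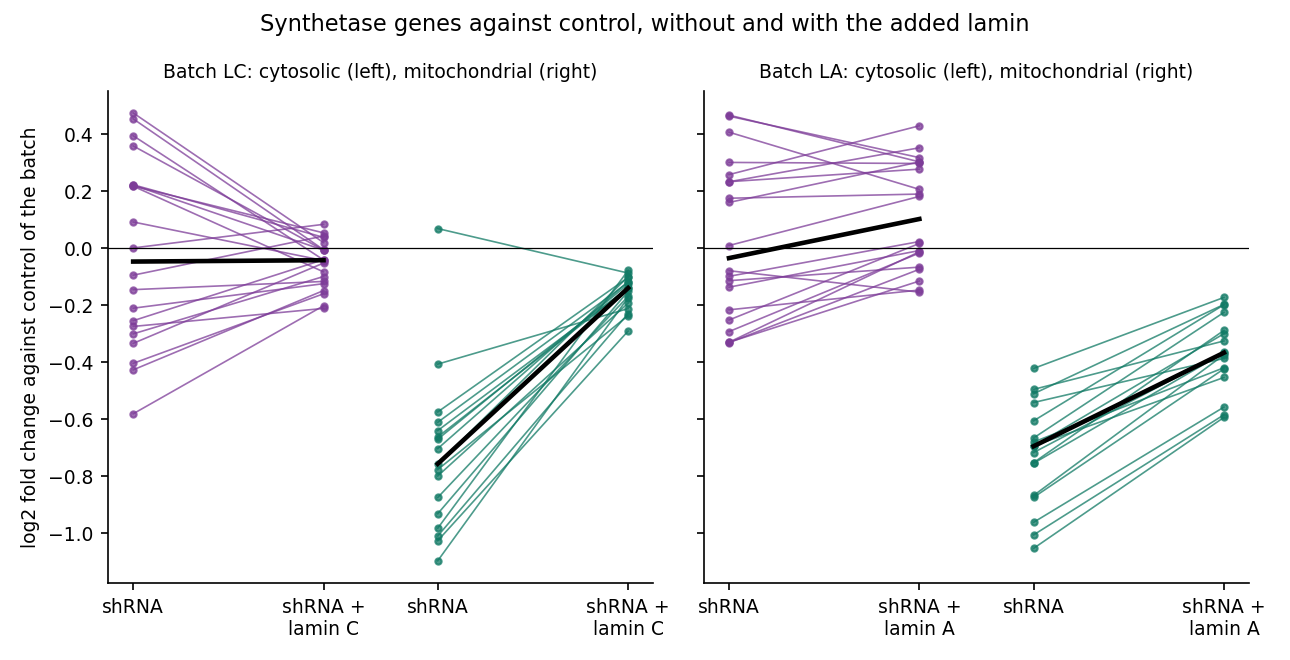
Log2 fold change against the control of the same batch (y axis) of each synthetase in hearts labelled Lmna shRNA and in hearts with the added lamin, joined by a line, for batch LC (left panel, lamin C) and batch LA (right panel, lamin A); purple lines are cytosolic, green mitochondrial, and the thick black line is the class median. Mitochondrial medians go from −0.76 to −0.14 with lamin C and from −0.70 to −0.37 with lamin A under TMM scaling, and on library totals the cytosolic class lies above 0 in hearts labelled Lmna shRNA, with a median of 0.38 in batch LC.

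The effect of the added lamin differed between lamin A and lamin C for 13 of 37 members in the test of the difference itself (edgeR, with 18.7% of all genes called). The 8 cytosolic members called were all higher with lamin A relative to lamin C (9.9% of all genes were) and the 5 mitochondrial ones all lower (8.84% were). Leaving out 1 library gave 5 to 12 members called: 5 without lamin A replicate 3, 7 without shRNA-labelled replicate 3 of either batch, and 8 without replicate 2 of the lamin C, lamin A or LA shRNA-labelled hearts. With no filter on low counts 7 were called, among them Lars2 as higher (0.32). Against control rather than against the shRNA label, 7 cytosolic members were relatively higher and 4 mitochondrial ones relatively lower (7.35% and 7.29% of all genes, and 14.6% in either direction). These 11 calls came to 7 without LC control replicate 3, LA control replicate 2, or lamin A replicate 2 or 3, and to 6 without the third controls of both batches. Among the first set were 7 of the 12 cytosolic genes outside the complex and 1 of the 8 inside it, Rars. Because each lamin was given in its own batch, these tests compare lamin and batch together, and Lmna itself reached 1252 ± 165 CPM with lamin C and 531.3 ± 27.4 CPM with lamin A (SD, n = 3).

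Aars, the alanine enzyme, had the smallest p of the cytosolic members in the test of the added lamins, which left 12 of 20 uncalled. Its pattern is not that of the whole class. In batch LC it measured 70.5, 73.0 and 76.8 CPM in controls, 83.7, 82.1 and 90.5 CPM with the shRNA label, and 70.6, 64.7 and 72.8 CPM with lamin C. In batch LA it measured 73.8, 75.6 and 74.5 CPM, then 88.9, 88.8 and 85.6 CPM, then 94.4, 94.8 and 96.7 CPM with lamin A. The lamin C hearts thus overlapped their controls, while under TMM scaling all lamin A hearts were above every other heart of their batch. The step from the shRNA label to lamin A was not called (0.12 ± 0.05, edgeR, adjusted p = 0.105) and turned to −0.083 on library totals (adjusted p = 0.282). The difference of lamin effects was 0.42 ± 0.08 (edgeR, adjusted p = 0.000812), and 14.3% of the exon bases of Aars also belong to Exosc6 on the same strand.

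Cars read 16.8, 21.1 and 18.8 CPM in LC controls, 23.3, 26.1 and 23.4 CPM with the shRNA label and 18.2, 19.4 and 18.7 CPM with lamin C. In batch LA it read 18.3, 16.9 and 18 CPM, then 20.1, 22.3 and 21.2 CPM, and 24.2, 23.5 and 23.9 CPM with lamin A. Under TMM scaling lamin A hearts were the highest of their batch, and lamin C hearts lay inside the control range, a difference of lamin effects of 0.54 ± 0.10 (edgeR, adjusted p = 0.00137). The step from the shRNA label to lamin A, 0.17 ± 0.07, was not called (edgeR, adjusted p = 0.0875) and turned to −0.0313 on library totals. Yars, for tyrosine, measured 36.4, 38.1 and 34.8 CPM in LC controls, 39.4, 36.6 and 40.6 CPM with the shRNA label and 36.1, 35.3 and 34.7 CPM with lamin C. Its LA values were 37.4, 35.1 and 35.4 CPM, 40.4, 38.7 and 41.5 CPM, and 43.4, 43.1 and 46.6 CPM with lamin A, a difference of 0.28 ± 0.08 (edgeR, adjusted p = 0.0168). Gars reached 67.2, 74.1 and 67.7 CPM with lamin C, around its controls, and 81.5, 87.9 and 89.4 CPM with lamin A, above its controls and below the shRNA-labelled hearts of that batch. Nars was at 91.0, 97.6 and 91.8 CPM with lamin C and 105, 110.1 and 116 CPM with lamin A, and Rars at 40.2, 36.5 and 39.3 CPM and 42.8, 49.0 and 46.2 CPM. Both were lower than in shRNA-labelled hearts with either lamin (Nars −0.46 ± 0.06 and −0.16 ± 0.06, Rars −0.46 ± 0.06 and −0.20 ± 0.06).

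Among mitochondrial members Vars2 gave the firmest difference. It measured 30.4, 30.4 and 30.5 CPM with lamin C, just under its 3 controls, and 23.7, 23.97 and 23.4 CPM with lamin A, between control and shRNA-labelled hearts. The difference of lamin effects was −0.45 ± 0.07 (edgeR, adjusted p = 0.000266). Fars2 was at 41.3, 47.0 and 44.2 CPM with lamin C and 32.3, 32.6 and 33.0 CPM with lamin A, a difference of −0.50 ± 0.11 (adjusted p = 0.00239). Cars2 was at 27.6, 30.0 and 28.7 CPM with lamin C and 25.7, 24.4 and 24.6 CPM with lamin A, below its controls in both, with a difference of −0.33 ± 0.08 (adjusted p = 0.00677). For Vars2, Fars2 and Cars2 the lamin A hearts lay between the controls and the shRNA-labelled hearts with no overlap on either side. Iars2, at 118, 127 and 111 CPM with lamin C and 108, 111 and 105 CPM with lamin A, was not called in this test.

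In the class ratio the lamin C hearts came to 1.202, 1.11 and 1.17 log2 units between cytosolic and mitochondrial means and the lamin A hearts to 1.498, 1.5015 and 1.525. Every lamin C heart was above its controls, and every lamin A heart lay between its controls and its shRNA-labelled hearts. Cytosolic enzymes changed upward of their mitochondrial partners against control in 14 of 18 pairs with lamin C (median 0.10) and in 18 of 18 with lamin A (median 0.49). Beside these ratios stand the marker sums of the opening, in which cardiomyocyte markers were also nearer the control with lamin C than with lamin A, and their part in the ratios was not tested.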

How the data were processed

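Mouse heart apex was sequenced in 18 libraries, 3 in each of 6 groups, from polyadenylated RNA with a directional kit per the labels' protocols. The submitters' processing notes list build mm10, featureCounts 1.5.0-p3, HISAT2 2.0.5, DESeq2 1.20.0 and StringTie 1.3.3b, without saying what each did. The authors deposited whole-number counts per gene without scaling, and FPKM values made by the authors from count and gene length. Between libraries the FPKM kept nearly the TMM scale and not that of library totals. For shRNA against control in batch LC the cytosolic median was −0.05 on log2 FPKM with a pseudocount of 0.1. It was −0.05 with TMM as well, and 0.38 on library totals. The sources used here do not say whether counting used strand, and 10 members share exon bases with another protein-coding gene, so these are less certain.

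Counts were fitted with edgeR 4.0.16 in R 4.3.3 (quasi-likelihood F test, TMM, filterByExpr) over all 6 groups at once, with 12 residual degrees of freedom, and p-values were Benjamini-Hochberg adjusted over 17876 of 54532 genes. The threshold was 0.05, and standard errors come from the F statistic. The biological coefficient of variation was 9.13%. No library of a group repeated another by its counts. The members and lists were chosen with earlier results of these data known. Members named with values in every library are the 5 of each class with the largest mean change called in both batches, the 3 of each class with the highest FPKM, and up to 6 called in each test of a difference; 1 of these members is counted in the class but not reported here by name. Alternatives were DESeq2 1.42.0, RLE factors, library totals, no filter, exclusion of mitochondrially encoded genes, limma 3.58.1 on log2 FPKM with a pseudocount of 1 (genes at 1 FPKM or more in 3 libraries, or unfiltered) or of 0.1, the compared groups alone, a replicate block, leaving out each library and, chosen after seeing the data, leaving out the third control of both batches. The test was tried on simulated counts.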

Additional observations from a re-analysis of the deposited data

Results flagged for a closer look

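Members are given here because the test of the difference between lamin A and lamin C (edgeR, adjusted p under 0.05) called them. All differences are log2 units, lamin A in batch LA minus lamin C in batch LC, and each lamin was in 1 batch. For the step from shRNA-labelled hearts to hearts with added lamin, the cytosolic values were 0.42 for Aars, 0.54 for Cars, 0.29 for Gars, 0.23 for Hars, 0.29 for Nars, 0.26 for Rars, 0.22 for Tars and 0.28 for Yars. The mitochondrial values were −0.31 for Aars2, −0.33 for Cars2, −0.50 for Fars2, −0.30 for Hars2 and −0.45 for Vars2. For the distance from control, the values were 0.44 for Aars, 0.44 for Cars, 0.36 for Gars, 0.24 for Hars, 0.28 for Nars, 0.30 for Tars and 0.35 for Yars. They were −0.27 for Cars2, −0.41 for Fars2, −0.33 for Hars2 and −0.35 for Vars2. Hars and Hars2 lie head to head and share 195 exon bases on opposite strands, and their differences have opposite signs. Groups of 3 libraries were too small for a search for single outlying libraries.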

How the results depend on the processing

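With DESeq2, RLE size factors and limma on filtered FPKM, all counts of called members stayed within 1.5 times those reported. All of these settings keep nearly the TMM scale. Library totals changed most. In batch LC, shRNA against control, they gave 16 cytosolic members higher and 0 lower, and in batch LA 17 and 0. With lamin C against the shRNA label 0 cytosolic members were higher, and with lamin A 0 were higher, 8 lower and 7 mitochondrial higher. Against control lamin C gave 2 cytosolic higher, 0 lower and 1 mitochondrial lower, and lamin A 17, 0 and 5. Turns of sign on library totals are listed here only for members called under TMM scaling or on totals. For shRNA against control in batch LC signs turned to 0.15 for Eprs, 0.0915 for Farsb, 0.021 for Iars and 0.22 for Kars. They turned as well to 0.28 for Lars, 0.12 for Mars, 0.17 for Qars, 0.0187 for Rars2 and 0.33 for Farsa. In batch LA they turned to 0.11 for Dars, 0.11 for Farsb, 0.15 for Iars, 0.19 for Mars, 0.22 for Qars, 0.11 for Wars, 0.0153 for Rars2, 0.32 for Eprs, 0.30 for Farsa, 0.36 for Kars and 0.34 for Lars. Lamin C against the shRNA label turned to −0.0346 for Dars, −0.0314 for Farsb, −0.0687 for Iars, −0.11 for Mars, −0.10 for Qars, −0.25 for Eprs, −0.23 for Kars, −0.28 for Lars and −0.23 for Vars. Lamin A against the shRNA label turned to −0.0312 for Vars, −0.16 for Hars, −0.13 for Qars and −0.19 for Sars. Members called on neither scale turned there too, among them Aars (−0.083), Cars (−0.0313) and Yars (−0.0605). With lamin C against control no called member turned, while the cytosolic median moved from −0.04 to 0.07. Lamin A against control turned to 0.0814 for Kars, 0.0887 for Qars, 0.0371 for Tars2, 0.17 for Eprs, 0.23 for Farsa, 0.16 for Farsb, 0.22 for Iars and 0.22 for Wars. The difference between the classes' mean changes in batch LC was 0.714 with TMM and 0.715 on totals. Of all called genes 52.9% were higher with TMM and 81.2% on totals in batch LC, 52.7% and 82.4% in batch LA.

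The small counts were least stable. Cytosolic members lower with lamin A against the shRNA label numbered 2, but 0 with no filter, 1 without mitochondrially encoded genes and 1 with unfiltered limma. Those lower with lamin C against control numbered 2, but 0 with no filter and 1 with the compared groups alone. Those lower with lamin A against control numbered 2, but 0 with no filter. The difference between added lamins, 13 members, came to 7 with no filter and 7 with the compared groups alone, and the difference in shRNA effect to 1 with no filter.

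Libraries were left out in turn. The shRNA counts of batch LC ran 8 to 8 and 8 to 9 for cytosolic members and 16 to 16 for mitochondrial ones, and those of batch LA 8 to 9, 6 to 7 and 16 to 16. Cytosolic members lower with lamin A against the shRNA label ran 0 to 2, lower with lamin C against control 0 to 1, and lower with lamin A against control 0 to 3. Each library of the compared groups moved these by over 1.5 times except lamin A replicate 3 in the first and LA control replicate 1 in the last, which gave 2 and 3. Mitochondrial members lower with lamin C against control ran 1 to 2 (1 without lamin C replicate 3). With lamin A, mitochondrial members higher against the shRNA label ran 12 to 14, and those lower against control 11 to 14. The difference between added lamins ran 5 to 12 and the difference against control 7 to 11. Leaving out the third control of both batches together was chosen after seeing the data. It gave 1 cytosolic member lower with lamin A against the shRNA label, 1 with lamin C against control and 0 with lamin A against control, and 6 for the difference against control.

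Replicate numbers did not pair the libraries: 18 pairs of libraries with the same number had correlations of −0.046 to 0.062, none above 0.1. With the replicate number as a block the shRNA counts were as reported (8, 9 and 16 in batch LC, 9, 6 and 16 in batch LA), cytosolic members lower with lamin A came to 1 against the shRNA label and 1 against control, and the differences to 11 and 8. With 3 libraries a group, changes near the median standard error of 0.06 for a member cannot be resolved.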
